A study of Mus musculus with 10 samples.

Results

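The genes described here are the colony-stimulating factors Csf1, Csf2 and Csf3, the cytokine Il34, and the receptor genes Csf1r, Csf2ra, Csf2rb and Csf3r. They were measured in whole mouse kidney with and without Lkb1 (gene symbol Stk11) in the tubules. A gene was taken as measured where a row of the array's value table carries its symbol, or a synonym, and no other gene's symbol. That held for 7 of the 8 genes, each with 1 row, out of 30142 genes in all. No row was matched to Csf2rb, so it has no value here.

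Each of 10 arrays measured RNA from the whole kidney of 1 mouse aged 5 weeks, 5 mice in each group. The knockouts carried floxed Lkb1 and KspCre, a transgene in which the Cdh16 promoter, active in kidney tubule cells, drives Cre. The controls were littermates with Lkb1 floxed on 1 or both chromosomes and no KspCre. All mice of both groups thus carried a floxed allele, and the knockouts alone carried Cre, so effects of the transgene and of Lkb1 loss cannot be told apart. The titles call the knockouts Stk11 knockdown and the controls wildtype, the strain is labelled C57Bl/6N although the floxed mice had a mixed background, and the series' design text speaks of MDCK cells, a dog kidney line. The text here follows the breeding protocol. The question is which of these cytokines and receptors differ between kidneys with and without tubular Lkb1.

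Colony-stimulating factors are secreted proteins that keep myeloid cells alive and make them divide and mature. CSF1 and IL-34 are different proteins that both bind the receptor tyrosine kinase CSF1R, on which tissue macrophages depend, and in the kidney both ligands can be made by tubule cells. GM-CSF, encoded by Csf2, acts through the alpha chain CSF2RA and the beta chain CSF2RB, and G-CSF, encoded by Csf3, drives neutrophil formation through CSF3R.

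In the knockout kidneys both ligands of CSF1R, the receptor gene Csf1r itself and the GM-CSF receptor gene Csf2ra were higher, with no overlap between the groups for any of these 4 genes. Il34 was 1.64-fold higher, Csf1 1.34-fold, Csf1r 1.29-fold and Csf2ra 1.23-fold. Csf2, Csf3 and the G-CSF receptor gene Csf3r did not pass the test. Of the 7 genes, 4 rose and 0 fell, where 5.35% of all 30142 genes rose and 2.67% fell by the same test. Likewise 4 of the 7 had all 5 knockouts above all 5 controls, against 5.07% of all genes. The test was limma's moderated test across all genes, two-sided, with p-values adjusted by the Benjamini-Hochberg method and a threshold of 0.05. After quantile normalisation of the values the same 4 genes passed, while the share of increases among all calls moved from 66.7% to 55.5%.

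Promoter sequences were taken for 4 of the genes, namely Csf1, Csf2, Csf2ra and Csf3r. They are RefSeq sequences of the mouse build GRCm38.p6, the build also known as mm10. No window of Il34 or Csf1r, which also rose, was taken. That is no evidence that a promoter sequence is lacking for them. The windows of Csf1 and Csf2ra are shown because, of the 4 genes, these rose. Each is the 250 bases before the transcription start in the promoter set, 5′ to 3′ on the gene's own strand. That is the minus strand for both. Csf1 is at chr3:107760470-107760719 and Csf2ra at chr19:61228419-61228668. The Csf2ra start lies inside the gene's span given below, which ends at 61228461, so the window's bases nearest the start overlap that span. Capitals mark matches, on either strand, to 3 motifs: the NF-kappaB consensus, the core GAGGAA bound by the myeloid factor PU.1, and the cAMP response element TGACGTCA.
Csf1: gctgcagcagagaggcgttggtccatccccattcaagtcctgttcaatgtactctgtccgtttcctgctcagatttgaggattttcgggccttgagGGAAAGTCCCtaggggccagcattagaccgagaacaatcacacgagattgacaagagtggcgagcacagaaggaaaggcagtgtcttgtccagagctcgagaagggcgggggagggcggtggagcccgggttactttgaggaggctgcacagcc
Csf2ra: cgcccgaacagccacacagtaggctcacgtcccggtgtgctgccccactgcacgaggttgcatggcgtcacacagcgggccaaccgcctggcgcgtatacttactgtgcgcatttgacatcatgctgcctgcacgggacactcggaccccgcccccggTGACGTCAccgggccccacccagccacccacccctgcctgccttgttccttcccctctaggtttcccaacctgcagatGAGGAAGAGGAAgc

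The Csf1 window held 1 match to the NF-kappaB consensus, 145 to 154 bases before the start, and no match to the other motifs. The Csf2ra window held 1 cAMP response element, 85 to 92 bases before the start, and 2 adjoining GAGGAA cores, at 9 to 14 and 3 to 8 bases. Both cores lie in the stretch that overlaps the gene's span. Of 32841 windows of this length searched across the genome's promoters, 3.90% held the NF-kappaB consensus, 23.3% the GAGGAA core and 1.55% the cAMP response element. The window of Csf3r, which did not pass, held 1 GAGGAA core, and that of Csf2 held no match to any of the 3. The Csf3r window, chr4:126024409-126024658 on the plus strand, lies wholly inside the gene's span given below, which starts at 126023441. The motifs were chosen after the sequences were seen, so the shares do not measure how unusual these matches are. They are matches of letters, and binding was not measured.

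Stk11, the targeted gene, is the check of the labels. Its log2 values were 9.43, 9.40, 9.48, 9.46 and 9.40 in controls 1 to 5 and 9.12, 9.21, 9.07, 9.21 and 9.31 in knockouts 1 to 5, lower in every knockout than in every control. All values are log2 expression from RMA (robust multi-array average), and a difference is knockout minus control in log2 units. Arrays give no read counts, so their number limits the precision. As a floor, values were set against 5222 negative control probe sets, called negative controls here, whose median ran from 5.10 to 5.37 over the arrays, which correlated with each other at 0.992 to 0.998 over all genes. The kidney was recognisable in both groups: the mean of Umod, the uromodulin gene of the thick ascending limb, was 13.16 in controls and 12.70 in knockouts, and that of Slc5a2, a glucose transporter of the proximal tubule, 12.02 and 11.56.

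Il34 encodes the CSF1R ligand IL-34, a cytokine known to keep microglia and the Langerhans cells of the skin. It lies on chromosome 8 at 110741829 to 110805949. Controls 1 to 5 measured 6.82, 6.62, 6.58, 6.49 and 6.45, and knockouts 1 to 5 measured 7.49, 7.48, 7.48, 7.04 and 7.01. Knockouts 1, 2 and 3 lay close together, knockouts 4 and 5 lay lower, and the lowest knockout was still above the highest control. Control kidneys averaged 6.59 ± 0.14 and knockout kidneys 7.30 ± 0.25 (SD over 5 kidneys each), which is a log2 difference of 0.71 (SE 0.11, limma adjusted p = 0.00221). The 95% interval of the fold ran from 1.39 to 1.93. Of all genes, 225 (0.746%) had a larger difference in the upward direction. The control mean exceeded 80.4% of the negative controls, and the knockout mean 90.3%.

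Csf1 encodes the other CSF1R ligand, the macrophage colony-stimulating factor, and lies on chromosome 3 at 107741048 to 107760469. Its values were 6.70, 6.67, 6.86, 6.69 and 6.76 in controls 1 to 5 and 7.22, 7.27, 7.23, 7.09 and 6.98 in knockouts 1 to 5. Knockout 5 was the lowest of its group and lay above control 3, the highest control. Control kidneys averaged 6.74 ± 0.08 and knockout kidneys 7.16 ± 0.12 (SD over 5 kidneys each), which is a log2 difference of 0.42 (SE 0.06, limma adjusted p = 0.00162) and a fold with a 95% interval from 1.22 to 1.47. The control mean exceeded 82.8% of the negative controls.

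The larger rise of Il34 was itself put to a test. The log2 value of Il34 minus that of Csf1 in the same kidney changed by 0.29 (SE 0.10) from controls to knockouts, and 3 of the 5 knockouts lay above every control in this measure. The two-sided exact permutation p was 0.0317, and 0.0635 when adjusted over the 2 pairs of genes tested, so a difference in response between the ligands did not pass. The smallest p that 5 against 5 kidneys allow is 0.00794.

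Csf1r encodes the receptor of both ligands, a tyrosine kinase of macrophages and their precursors, and lies on chromosome 18 at 61105572 to 61131139. Controls 1 to 5 measured 8.89, 8.76, 8.83, 8.60 and 8.69, and knockouts 1 to 5 measured 9.19, 9.13, 9.27, 9.07 and 8.93. The groups did not overlap, although knockout 5 lay only just above control 1. Control kidneys averaged 8.76 ± 0.12 and knockout kidneys 9.12 ± 0.13 (SD over 5 kidneys each), which is a log2 difference of 0.36 (SE 0.07, limma adjusted p = 0.00804) and a fold with a 95% interval from 1.16 to 1.43. Csf1r stood well clear of the negative controls, with a control mean above 97.5% of them. In whole kidney, more cells of a type and more RNA per cell cannot be told apart.

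Csf2ra encodes the ligand-binding alpha chain of the GM-CSF receptor and lies on chromosome 19 at 61217191 to 61228461. Its values were 7.47, 7.29, 7.58, 7.54 and 7.56 in controls 1 to 5 and 7.93, 7.76, 7.87, 7.71 and 7.67 in knockouts 1 to 5. All knockouts were above all controls, with control 2 the lowest kidney. Control kidneys averaged 7.49 ± 0.12 and knockout kidneys 7.79 ± 0.11 (SD over 5 kidneys each), which is a log2 difference of 0.30 (SE 0.07, limma adjusted p = 0.0155) and a fold with a 95% interval from 1.11 to 1.36. The beta chain was not measured, so the receptor is described here by its alpha chain alone.

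**Figure D1:**
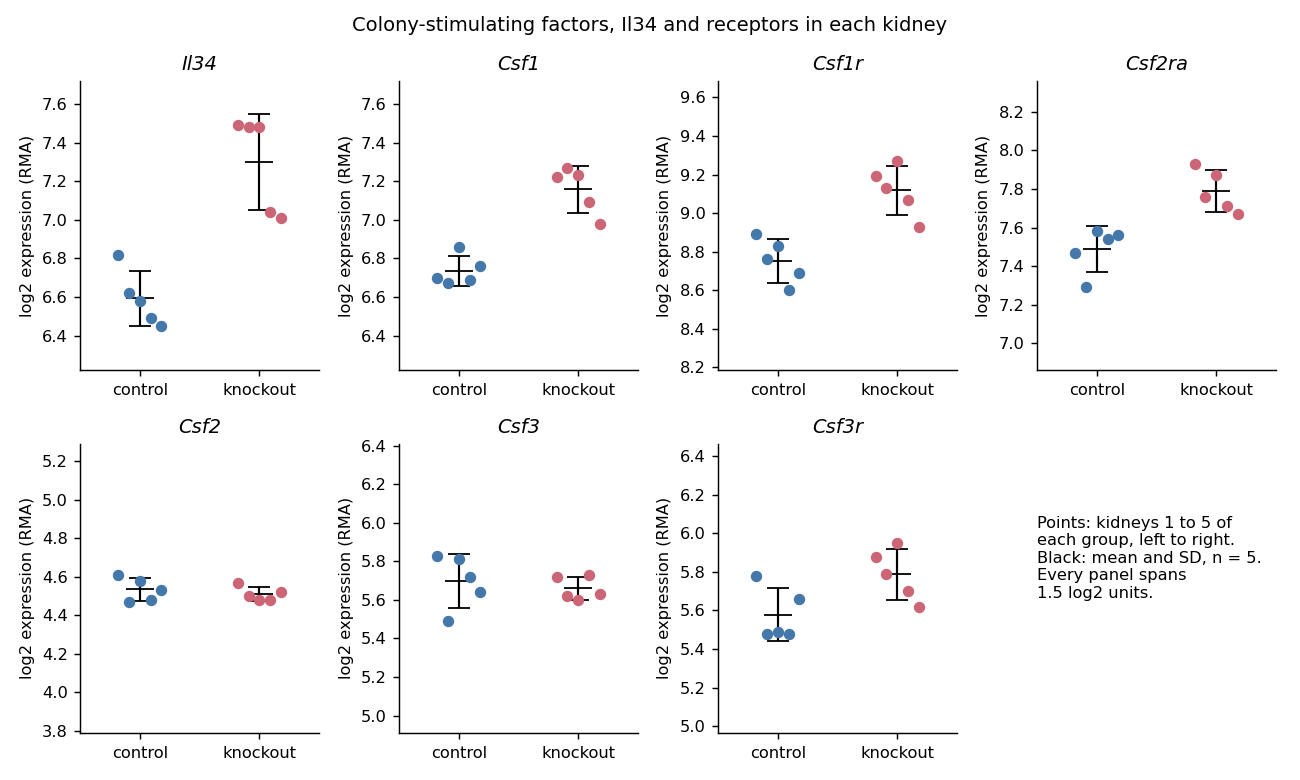
Log2 RMA expression of the 7 measured genes in each kidney, controls in blue and knockouts in red, with the mean and SD of each group in black (n = 5 each). Il34, Csf1, Csf1r and Csf2ra have every knockout above every control, while the groups overlap for Csf2, Csf3 and Csf3r.

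Csf2 and Csf3, the genes of the granulocyte-acting factors, were dim. Csf2, on chromosome 11 at 54247270 to 54249899, measured 4.47 to 4.61 in the controls and 4.48 to 4.57 in the knockouts. It was below the negative controls' median on all 10 arrays, so it has no fold here, and its log2 difference was -0.02 (95% interval -0.12 to 0.07, limma adjusted p = 0.784). Csf2 was thus not above background in either group.

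Csf3, on the same chromosome at 98700183 to 98703631, measured 5.83, 5.49, 5.81, 5.72 and 5.64 in controls 1 to 5 and 5.72, 5.62, 5.60, 5.73 and 5.63 in knockouts 1 to 5. The knockouts lay within the range of the controls. The log2 difference was -0.04 (95% interval -0.18 to 0.11, limma adjusted p = 0.783), and the control mean exceeded 62.1% of the negative controls. A true change of a gene this close to the floor would appear smaller than it is.

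Csf3r, the G-CSF receptor gene of granulocytes and their precursors, lies on chromosome 4 at 126023441 to 126044975. Controls 1 to 5 measured 5.78, 5.48, 5.49, 5.48 and 5.66, and knockouts 1 to 5 measured 5.88, 5.79, 5.95, 5.70 and 5.62. Knockouts 1, 2 and 3 were above every control, while knockouts 4 and 5 lay among the controls. The log2 difference was 0.21 (SE 0.08, 95% interval 0.04 to 0.38), with a limma adjusted p of 0.123, so it did not pass. Its unadjusted p was 0.0183, and 23.0% of all genes had an unadjusted p under 0.05. The control mean exceeded 59.3% of the negative controls.

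Csf1r passed and Csf3r did not, and the difference between them was tested. The log2 value of Csf1r minus that of Csf3r changed by 0.15 (SE 0.06), with an exact two-sided permutation p of 0.0635 (0.0635 adjusted over the 2 pairs). The macrophage and the granulocyte receptor were therefore not shown to differ in their response.

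**Figure D2:**
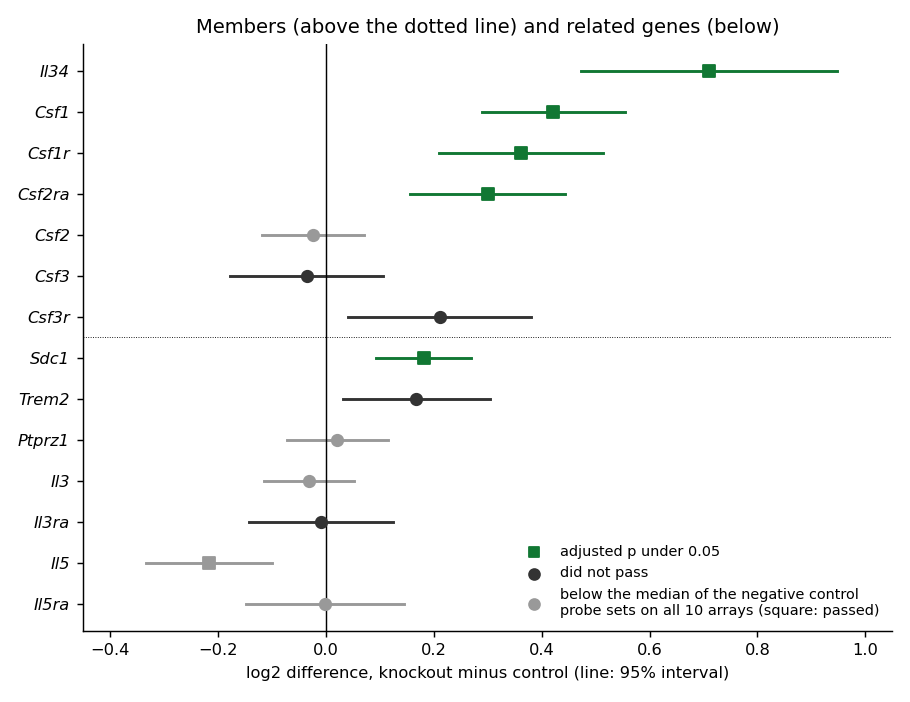
Log2 difference, knockout minus control, with its 95% interval for the 7 measured genes, for other proteins described to bind IL-34 (Sdc1, Trem2, Ptprz1) and for the beta common receptor family (Il3, Il3ra, Il5, Il5ra). Il34 has the largest difference at 0.71, and grey marks genes below the negative controls' median on all 10 arrays.

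Besides CSF1R, IL-34 has been described to bind syndecan-1, the receptor phosphatase PTPRZ1 and the myeloid receptor TREM2. Of these 3 genes, Sdc1, which encodes syndecan-1, rose (2 genes rose after quantile normalisation). It measured 7.04 to 7.12 in the controls and 7.19 to 7.35 in the knockouts, a log2 difference of 0.18 (SE 0.04, limma adjusted p = 0.0159). Trem2 differed by 0.17 (limma adjusted p = 0.127), with 5.80 to 6.00 in controls and 5.89 to 6.18 in knockouts. Ptprz1 was below the negative controls' median on all 10 arrays, with means of 3.78 and 3.80.

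The beta chain that CSF2RB provides is shared with the receptors of the interleukins encoded by Il3 and Il5, which act on mast cells, basophils and eosinophils. Its 4 measured relatives gave 0 increases and 1 decrease. Il3ra, an alpha chain measured at a clear level, had means of 7.16 in both groups (log2 difference -0.01, 95% interval -0.14 to 0.13, limma adjusted p = 0.948). Il5 passed in the downward direction (log2 difference -0.22, limma adjusted p = 0.0280), with 4.40 to 4.61 in controls and 4.14 to 4.35 in knockouts. Il5, Il3 and Il5ra were all below the negative controls' median on all 10 arrays, so none of them has a fold. The 9 markers of eosinophils and mast cells gave 0 calls by limma and 0 at an unadjusted p under 0.05, with differences from -0.11 for Epx to 0.05 for Cpa3. In this list 7 of the 9 control means lay below the negative controls' median, so a change of these could go unseen.

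Some genes of the CSF1R pathway were also higher. Of 20 measured genes of this list, mostly adaptors, kinases and phosphatases, 4 rose, 1 fell and 15 did not pass. Their median log2 difference was 0.08, where the median of all genes was -0.03. By the same test 5.35% of all genes rose and 2.67% fell, the shares to set beside this list and those that follow. Tyrobp, the adaptor DAP12 of myeloid receptors, rose from 6.21 ± 0.17 to 6.78 ± 0.27 (SD, n = 5 each; log2 difference 0.58, limma adjusted p = 0.0118). Inpp5d, the lipid phosphatase SHIP1 of blood cells, differed by 0.52, Pik3cg, a phosphoinositide kinase of leukocytes, by 0.44, and the scaffold protein gene Gab2 by 0.24. Gab2 did not pass after quantile normalisation (limma adjusted p = 0.0676) or with the replicate number as a block (0.0536). Dok2, an adaptor that dampens kinase signalling and the 1 gene that fell, was named after its values were seen (log2 difference -0.22). The widely used adaptor genes Grb2 (0.02), Shc1 (0.05) and Sos1 (-0.06) did not pass, nor did Adam17 (0.08), whose protease can shed CSF1R from the cell surface.

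Among 10 measured transcription factors of the macrophage lineage or of the Csf1r gene, 3 rose (30.0%), 0 fell and 7 did not pass. The median was 0.16. Runx1, a regulator of blood cell formation, rose from 6.30 ± 0.07 to 6.75 ± 0.14 (log2 difference 0.45, limma adjusted p = 0.00165). Egr2 differed by 0.30 and Ets2 by 0.19. Cebpa (-0.16) and Irf8 (0.18), factors of myeloid cell fate, did not pass.

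In the signalling chain of the GM-CSF and G-CSF receptors, 3 of 15 measured genes rose, 0 fell and 12 did not pass, with a median of 0.12. Stat3, the main transducer of the G-CSF receptor, rose from 9.04 ± 0.05 to 9.41 ± 0.10 (log2 difference 0.38, limma adjusted p = 0.00118). Cebpd, a transcription factor gene induced in inflammation, differed by 0.66 and the kinase gene Jak1 by 0.14. Jak1 did not pass after quantile normalisation (limma adjusted p = 0.108) or with the replicate number as a block (0.0516). Stat5a (-0.06), Stat5b (0.03) and the feedback inhibitor gene Cish (-0.13), which STAT5 induces, did not pass. Neither did the feedback inhibitor genes Socs2 (0.27) and Socs3 (0.25), nor Jak2 (0.12), the kinase bound to the beta chain.

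CSF1R belongs to the class III receptor tyrosine kinases, and of 9 measured relatives and ligands of that class 1 rose (11.1%) and 2 fell (22.2%). Pdgfrb, a receptor of pericytes and fibroblasts, differed by 0.47 (limma adjusted p = 0.00678). Kit, the stem cell factor receptor gene, differed by -0.25 and the ligand gene Pdgfc by -0.26. Flt3, the receptor gene of dendritic cell precursors, differed by 0.27 with a limma adjusted p of 0.0549, and its ligand gene Flt3l by 0.14.

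**Figure D3:**
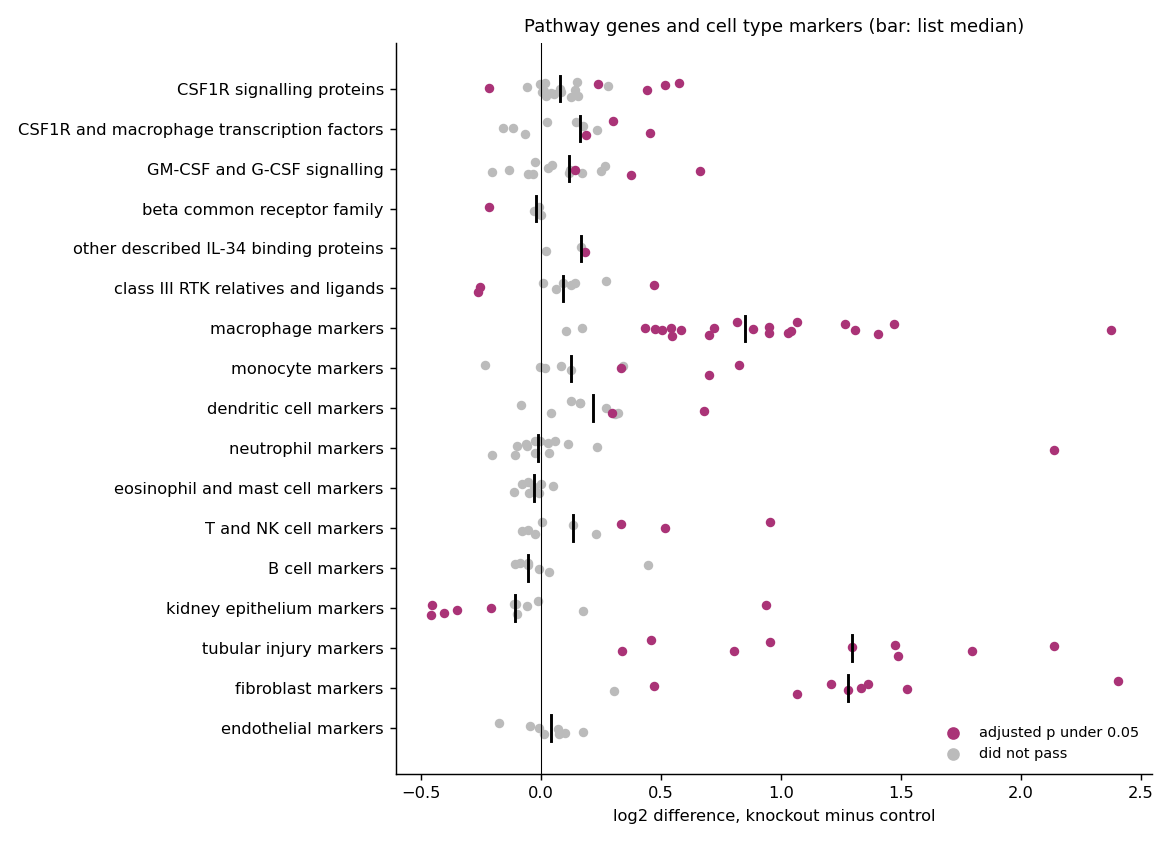
Log2 difference, knockout minus control, of every measured gene of 17 pathway and cell type lists, with genes past the threshold in purple, other genes in grey and the list median as a black bar. The macrophage, tubular injury and fibroblast medians stand at 0.85, 1.30 and 1.28, and the medians of the pathway lists of CSF1R, GM-CSF and G-CSF stand between 0.08 and 0.16.

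Markers of the cells that carry these receptors moved to different extents. Of 22 macrophage markers, 20 rose, 0 fell and 2 did not pass, with a median log2 difference of 0.85, and the 4 with the largest differences were Lyz2 (2.38), Mpeg1 (1.47), Mrc1 (1.41) and Ctss (1.31). The difference of Csf1r was smaller than that of 20 of these 22 markers, the exceptions being Mertk (0.11) and Aif1 (0.17). Averaged over the list, the controls lay between -0.08 and 0.13 of the control mean and the knockouts between 0.47 and 1.17. Of 9 monocyte markers, 3 rose, namely Plac8 (0.70), Ly6c2 (0.33, adjusted p = 0.0514 after quantile normalisation) and Ccr2, and 4 of the 9 had a control mean below the negative controls' median. Ccr2 was 1 of these 4, with means of 4.55 and 5.37 and 4 of 10 arrays above that median, so the size of its change is not given. Ly6c2 was bright already in controls, with a mean of 10.6, above 99.1% of the negative controls. Which cells carried its RNA was not measured. Of 10 dendritic cell markers, 2 rose (Cd209a by 0.68 and Clec10a by 0.30). Their part in the rises of Csf1r and Csf2ra was not tested.

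Among 14 neutrophil markers, the cells that carry the G-CSF receptor, 1 rose, namely Lcn2 (log2 difference 2.14), which injured tubule cells also make and which is on the tubular injury list as well. None of the other 13 passed by limma, with 2 at an unadjusted p under 0.05, 1 of these higher, and the median of the list was -0.01. The control mean of 6 of the 14 lay below the negative controls' median, so the arrays could miss a change in them. The list's mean, Lcn2 included, lay between -0.07 and 0.06 of the control mean in controls and between 0.10 and 0.21 in knockouts. Lcn2 had by far the largest difference of the list, so this shift cannot be read as one of the other 13 markers.

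The macrophage markers varied between knockouts, and so did the 4 risen genes. Relative to the control mean, the macrophage list stood at 1.07, 1.02, 1.17, 0.68 and 0.47 in knockouts 1 to 5. Il34 stood at 0.90, 0.89, 0.89, 0.45 and 0.42 in the same kidneys. Csf1r stood at 0.44, 0.37, 0.51, 0.31 and 0.17, and Csf1 at 0.48, 0.53, 0.50, 0.35 and 0.25. In each of these, and in Csf2ra and Csf3r, knockouts 4 and 5 were the lowest of the knockouts. The injury list stood at 1.33, 1.30 and 1.40 in knockouts 1 to 3 and 0.99 and 0.95 in knockouts 4 and 5. These values are given side by side, and which of them accounts for another was not tested.

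**Figure D4:**
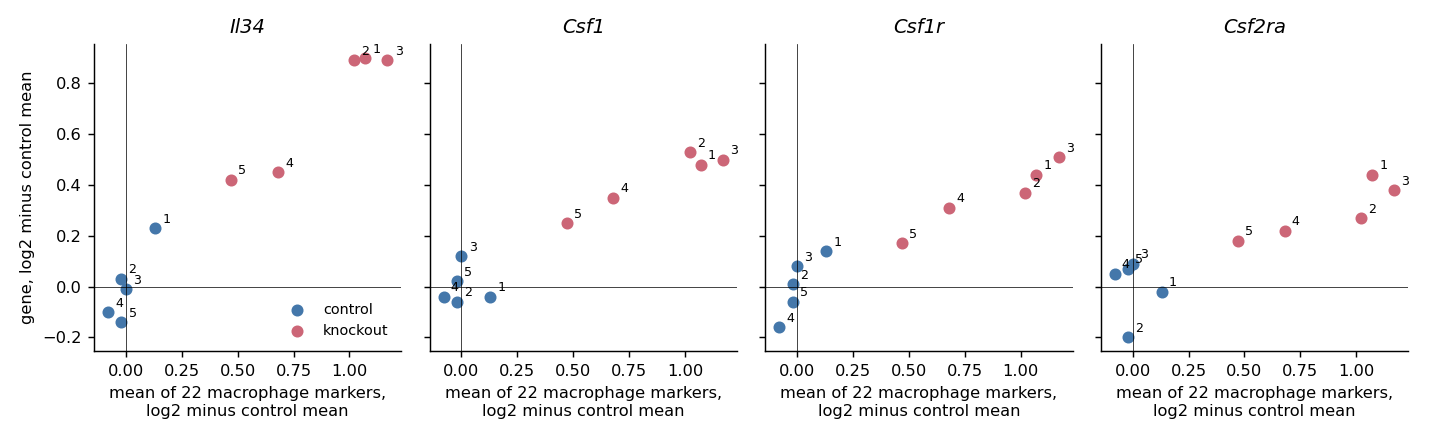
Log2 value relative to the control mean of Il34, Csf1, Csf1r and Csf2ra (vertical axes) against the mean of 22 macrophage markers on the same scale (horizontal axes), 1 numbered point per kidney, controls blue and knockouts red. Knockouts 4 and 5 lie below knockouts 1, 2 and 3 on both axes.

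The other cell types were counted for the same reason. All 9 measured tubular injury markers rose, with Lcn2, Vcam1 (1.80), Krt19 (1.49) and Havcr1 (1.48) ahead. Of 9 fibroblast markers 8 rose, among them Dpt (2.41), Postn (1.36), Dcn (1.33) and Lum, whose control mean of 5.01 lay below the negative controls' median, against 6.54 in knockouts. Of 12 kidney epithelium markers 5 fell and 1 rose, among them Slc5a2 (-0.46), Umod (-0.45), Atp6v1g3 (-0.41) and Aqp2 (0.94). Of 9 T and NK cell markers 3 rose, namely Cd4 (0.95), Cd3e (0.33) and Il7r, which was at background in controls (means 4.76 and 5.28, with 3 of 10 arrays above the negative controls' median). None of the 7 B cell and 8 endothelial markers passed by limma, with 1 of each at an unadjusted p under 0.05, with Ighm (0.45) and Ms4a1 (-0.09) nearest to passing among the former, and Kdr (-0.18) and Cdh5 (0.18) among the latter. Il34 and Csf1 are made by epithelial, endothelial and stromal cells among others, and which cells carried the higher RNA was not measured.

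The genes whose variation within the groups was most like that of each risen gene were found by the Pearson correlation of deviations from the own group's mean over the 10 kidneys, among 15071 genes brighter than the median gene. For Il34 they were Serpinb9 (0.96), Cd53 (0.96), Laptm5 (0.95) and Tnfrsf1b (0.95), of which Cd53 and Laptm5 are leukocyte membrane genes. For Csf1r they were Pld4 (0.94), Lrg1 (0.94), Ncf1 (0.93) and C1qtnf6 (0.93), of which Ncf1 encodes a subunit of the phagocyte oxidase. For Csf1 they were Kcnd3 (0.95), Oas1g (0.94), Gpr153 (0.94) and Gm17396 (0.92), and for Csf2ra they were Wdr86 (0.98), Klhl35 (0.95), Cd40 (0.95) and Peli3 (0.94). Between the genes themselves, Il34 and Csf1r reached 0.83, Csf1 and Csf1r 0.64, and Csf1r and Csf2ra 0.34. Csf3r, which did not pass, reached 0.74 with Csf1r and 0.73 with Il34, and Csf1 reached 0.68 with Csf2ra. High values were thus not limited to a ligand and its own receptor. All genes share the same 10 arrays and were picked for their likeness, so these are descriptions without a test.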

How the data were processed

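RNA of 10 kidneys was measured on Affymetrix arrays, per the labels' protocols. The deposited values are log2 expression per transcript cluster made by the authors with RMA on build mm10, per the submitters' processing notes. No version or filter is stated there, and the log2 scale was taken from the range of the values. Of 72688 rows, 30604 carried 1 gene symbol through the platform annotation, 2146 several and 39938 none. The symbols of 827 rows were updated through Entrez identifiers. The mean of a gene's rows gave 30142 genes.

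Groups were compared with limma 3.58.1 in R 4.3.3 (lmFit, eBayes with a mean-variance trend, no covariate), over all genes. Tables and exact permutation tests used Python 3.11.15, pandas 2.3.3 and scipy 1.17.1. Tested on simulated data for this comparison (30142 genes), the fit recovered 77 of 100 changes of 0.4 and 100 of 100 of 0.8 log2 units, with 10 false calls. The simulation drew each gene's noise independently and changed far fewer genes than were called here. Its counts need not hold for the real data. The closing section gives the alternative settings. Of 3 planned pairs of genes, Csf2rb against Csf2ra could not be compared.

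The genes described and the 17 lists were chosen with earlier results of these data known. Motifs were chosen after the sequences were seen. Named genes were the 8 members and Stk11, every measured gene of the beta common and IL-34 binding lists, up to 4 calls with the largest difference per other list (or the 2 smallest p), and the 4 most like each risen gene. Others were named to show genes that did not pass.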

Additional observations from a re-analysis of the deposited data

How the results depend on the processing

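The rises of Il34, Csf1, Csf1r and Csf2ra, the fall of Stk11 and the counts of 4 higher and 0 lower genes kept their direction and their side of the threshold under all 17 alternatives. These were quantile normalisation, arrays centred on their median, no mean-variance trend, a filter on dim genes, the brightest row per gene, array weights, the replicate number as a block, and each kidney left out in turn. Csf3 and Csf3r, too, stayed on their side of the threshold in all 17. Csf2 turned to 0.014 after quantile normalisation, remained below the threshold, and has no value under the filter on dim genes. With 1 kidney left out the log2 difference was 0.66 to 0.78 for Il34, 0.39 to 0.47 for Csf1, 0.32 to 0.41 for Csf1r, 0.25 to 0.33 for Csf2ra and 0.17 to 0.26 for Csf3r.

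The difference between Il34 and Csf1 ranged from 0.25 to 0.36 with 1 kidney left out, and passed without control 1 (0.36, adjusted exact permutation p = 0.0317) and without control 2 (0.31, 0.0397). That between Csf1r and Csf3r ranged from 0.12 to 0.19, and passed without control 2 (0.18, 0.0397) and without control 3 (0.19, 0.0159). The cause was not tested.

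Deviations of same-numbered kidneys correlated at -0.08 to 0.31 (median 0.19), against a median of -0.03 for different numbers, and 3 of 5 controls correlated best with their own number. That is a hint of pairing from the data. The labels state none and 1 of the 5 pairs was below 0, so the numbers were not taken to pair the kidneys. With the replicate number as a block the differences were 0.71 for Il34 (SE 0.062 against 0.109, limma adjusted p = 8.71e-04) and 0.36 for Csf1r (SE 0.045 against 0.070, adjusted p = 0.00317), and over all genes 1826 were higher and 955 lower, against 1614 and 806. The count of lower genes was 1299 after quantile normalisation and 437 to 1470 with 1 kidney left out, with 498 and 472 without controls 1 and 3, 514, 437 and 437 without knockouts 1, 2 and 3, and 1470 without knockout 5. Dendritic cell markers gave 5 increases after quantile normalisation and 4 with the block, against 2. Class III kinase genes gave 2 increases in both, against 1, other IL-34 binding proteins 2 after quantile normalisation, against 1, kidney epithelium markers 2 with the block, against 1, and endothelial markers 1 decrease after quantile normalisation, against 0. After quantile normalisation the GM-CSF and G-CSF signalling list and the monocyte list each gave 2 increases, against 3. The dimness of Csf2, Csf3, Csf3r and most eosinophil and mast cell markers limits what the arrays can show for them.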
